A study of Mus musculus with 11 samples.

Results

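Elastic fibre genes are the genes for elastin, for the microfibril proteins on which elastin is laid down, and for the enzymes that crosslink it. They were measured in adult mouse colon before and after the kinase inhibitor imatinib. The 10 genes chosen were Eln, Fbn1, Fbln1, Fbln5, Lox, Loxl1, Mfap4, Mfap5, Emilin1 and Ltbp1. Probe sets whose annotation named exactly 1 of these symbols were taken, which gave 20 probe sets for 9 of the 10 genes, among 18193 genes on the array. Fbn1, which encodes fibrillin 1, had no such probe set and is not analysed here.

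All samples were total RNA from colon of adult C57BL/6 mice on Affymetrix arrays. The control group held 3 arrays of colon before imatinib, and 4 arrays each were of colon 3 h and 12 h after an imatinib injection. No transgene or deletion is named for any group, and vehicle-injected mice or controls of a matched hour were not analysed here, so drug, injection and hour of harvest cannot be told apart. The labels do not say that replicates came from separate mice, so each p-value reflects only the variation among these samples, which may be technical.

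Elastic fibres let vessels, airways and the gut wall recoil after stretch. Fibroblasts and smooth muscle cells secrete soluble tropoelastin, fibulins carry it to a scaffold of fibrillin microfibrils, and lysyl oxidases, copper enzymes, turn lysine side chains into aldehydes that join neighbouring chains. The finished fibre lasts very long, so messenger RNA levels speak of new synthesis and not of the amount of fibre in the tissue. Imatinib inhibits the Abl kinases, Kit, the PDGF receptors and the collagen receptors of the DDR family.

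At 3 h none of the 9 genes passed the test for a change, and at 12 h the transcripts of Eln and 3 other genes were lower. Eln, Mfap5, Fbln5 and Lox fell both against control and against 3 h, to between 34.5% and 63.2% of the mean control signal. Mfap4, Fbln1, Loxl1, Emilin1 and Ltbp1 did not pass the test in any comparison, though Mfap4 and Loxl1 did under some other settings given below. The calls at 12 h rest on few arrays, as given for each gene, and 5 arrays carried pancreatic transcripts.

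Several facts of the arrays touch every value. A summed signal of 12 pancreatic acinar markers, which include digestive elastases and proteases, was between 2404 and 4179 on 6 arrays. It was 104388 on control replicate 1, 27695 on 3 h replicate 3, and 82952, 62829 and 29751 on 12 h replicates 1, 3 and 4. Control RNA with a poly-A tail, added to the samples and read by 12 probe sets, summed to 2055 to 2489 in control, 2257 to 2726 at 3 h and 3012 to 5655 at 12 h. All 12 h arrays thus lay above all others, so this difference cannot be told apart from the 12 h group itself. The part of this difference in the results was not tested. The ratio of 3' to 5' signal of Actb, a sign of RNA integrity, lay between 1.27 and 1.34 in control, 1.27 and 1.38 at 3 h and 1.23 and 1.37 at 12 h. Colon identity was borne out by the epithelial markers, 12 of 12 of which were above the median of all probe sets on each array.

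Eln, which encodes elastin, the protein that gives the fibre its recoil, had the largest fitted log2 change among the 9 genes at 12 h. On the linear means Mfap4 was lower, at 30.5% of control against 34.5% for Eln. The Eln signal was 257.2, 219.9 and 196.8 on the control arrays, 234.5, 206.7, 166.9 and 220.6 at 3 h, and 95.1, 78.6, 86.8 and 49.5 at 12 h. All 12 h arrays lay below all others, while control and 3 h arrays overlapped. In bulk colon, fewer cells of a type and less RNA per cell cannot be told apart. The means were 224.6 ± 30.5 (SD, n = 3), 207.2 ± 29.2 (SD, n = 4) and 77.5 ± 19.8 (SD, n = 4). The log2 change, here and below on the scale of log2(signal + 16), was -1.38 ± 0.18 (SE, limma Benjamini-Hochberg adjusted p = 0.00362) at 12 h against control and -1.27 ± 0.16 (SE, limma Benjamini-Hochberg adjusted p = 0.00136) against 3 h. At 3 h it was -0.11 with a 95% interval from -0.50 to 0.28. The second Eln probe set was dimmer and fell further, with 81.0, 84.8 and 61.6 in control, 65.9, 52.2, 48.2 and 64.3 at 3 h, and 10.2, 4.6, 10.6 and 2.3 at 12 h. Both probe sets thus separated the 12 h arrays from the rest, and at 12 h the dimmer probe set lay under the median of all probe sets on every array. Its log2 change at 12 h was -2.01 ± 0.16 (SE, limma Benjamini-Hochberg adjusted p over all probe sets = 0.000375).

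The Eln calls held without each single array in turn (limma adjusted p up to 0.0292 against control and 0.00654 against 3 h). Without the 5 arrays high in pancreatic transcripts, which leaves 1 array at 12 h assumed to vary like the other groups, the Eln log2 change was -1.24 (limma adjusted p = 0.0931; 0.000282 to 0.0931 over 12 settings other than leaving out single arrays) against control and -1.32 (limma adjusted p = 0.0556; 0.000131 to 0.0556) against 3 h. That remaining array, 12 h replicate 2, had an Eln signal of 78.6, below every control and 3 h array.

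**Figure D1:**
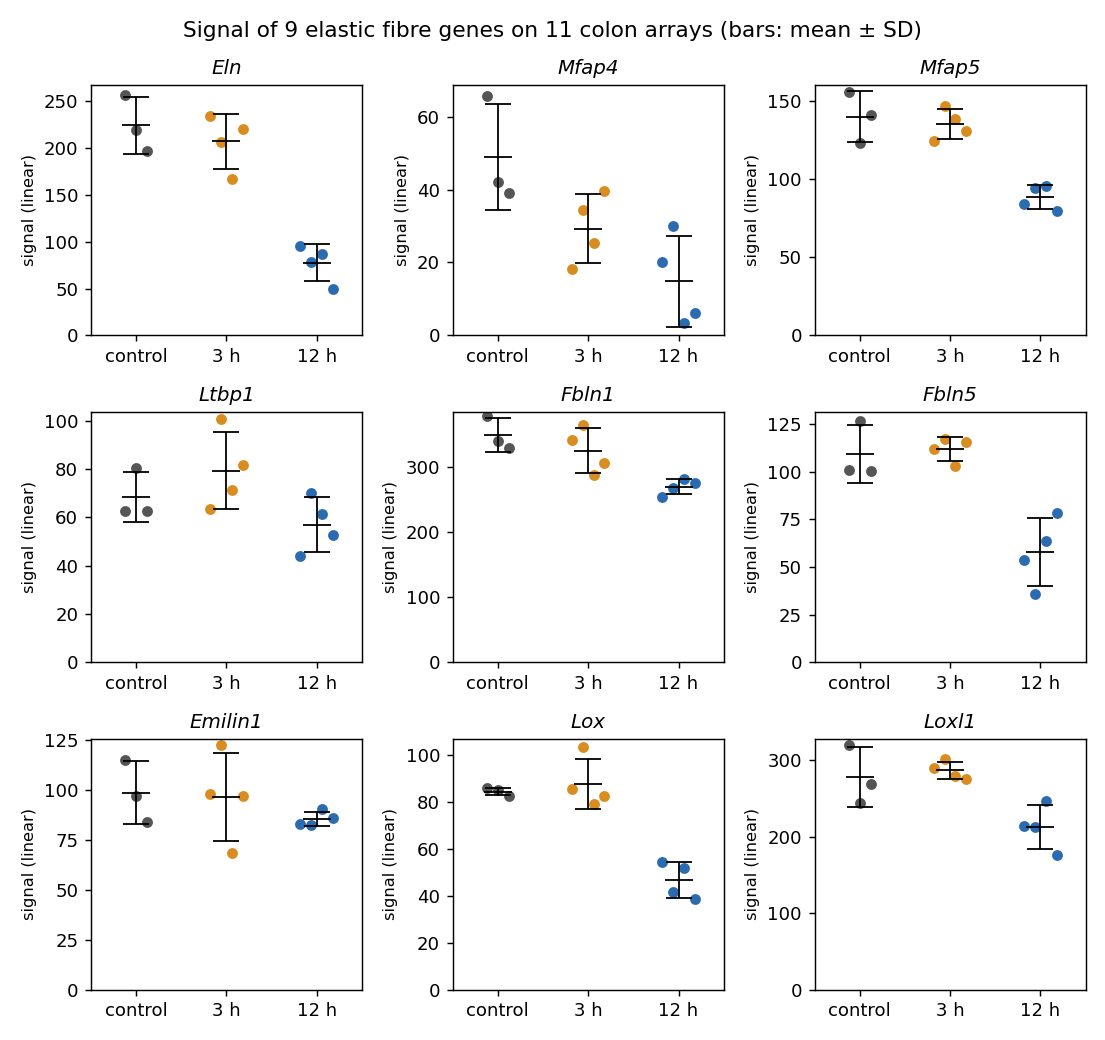
Linear signal (y axis) of the brightest probe set of each of 9 elastic fibre genes on 3 control, 4 3 h and 4 12 h arrays (points), with the group mean and SD (bars). Eln, Mfap5, Fbln5 and Lox at 12 h lie below every other array, while the groups of Emilin1 and Ltbp1 overlap.

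Microfibril genes differed among themselves. Mfap5 encodes a small glycoprotein that binds fibrillin. Its signal was 155.7, 122.8 and 141.0 in control, 124.4, 146.5, 138.6 and 130.4 at 3 h, and 84.1, 94.2, 95.8 and 79.5 at 12 h. The 12 h arrays were lower than all others, and their mean of 88.4 ± 7.88 (SD, n = 4) was 63.2% of the control mean of 139.8 ± 16.5 (SD, n = 3). The log2 change was -0.58 ± 0.11 (SE, limma Benjamini-Hochberg adjusted p = 0.0234) against control and -0.53 ± 0.10 (SE, limma Benjamini-Hochberg adjusted p = 0.0113) against 3 h. A dimmer Mfap5 probe set had a log2 change of -0.96 ± 0.16 (SE, limma Benjamini-Hochberg adjusted p over all probe sets = 0.0242) at 12 h against control. Leaving out control replicate 1 or 3 ended the call of Mfap5 against control (limma adjusted p up to 0.104), and that against 3 h held without each array.

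Mfap4 encodes a fibrinogen-related protein of the microfibril surface. Its signal was 65.6, 42.1 and 39.0 in control, 18.1, 34.4, 25.3 and 39.5 at 3 h, and 20.2, 30.0, 3.4 and 6.0 at 12 h. All 12 h arrays lay under all control arrays but overlapped those of 3 h. The log2 change at 12 h was -1.14 ± 0.28 (SE, limma Benjamini-Hochberg adjusted p = 0.0696) and did not pass the test, with a wide 95% interval from -1.75 to -0.52. Within 12 h, replicates 1 and 2 had 20.2 and 30.0 and replicates 3 and 4 had 3.4 and 6.0. Without the 5 arrays high in pancreatic transcripts, which leaves replicate 2 at 12 h, the change was -0.30.

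Ltbp1 encodes a protein that ties latent TGF-beta to microfibrils. The signal was 62.5, 80.5 and 62.8 in control, 63.6, 100.7, 71.5 and 81.7 at 3 h, and 43.9, 70.1, 61.3 and 52.6 at 12 h. The groups overlapped, and the log2 change at 12 h was -0.22 with a 95% interval from -0.56 to 0.12. The other 2 Ltbp1 probe sets were under the median of all probe sets on all 11 arrays.

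Fbln5 had a lower signal at 12 h. It encodes fibulin 5, which binds both tropoelastin and lysyl oxidase-like 1 and is needed to lay elastin on the microfibril. The Fbln5 signal was 101.1, 126.7 and 100.2 in control, 111.7, 117.1, 102.9 and 115.7 at 3 h, and 53.7, 35.7, 63.6 and 78.3 at 12 h. No 12 h array reached a control or 3 h array, and the 12 h mean of 57.8 ± 17.9 (SD, n = 4) was 52.9% of that in control. The log2 change was -0.82 ± 0.16 (SE, limma Benjamini-Hochberg adjusted p = 0.0134) against 3 h, a call that held without each array in turn. Against control it was -0.79 ± 0.17 (SE, limma Benjamini-Hochberg adjusted p = 0.0424), a call that ended when any of 10 single arrays was left out (limma adjusted p up to 0.168). It held without 12 h replicate 4, the highest at that time.

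The signal of Fbln1, which encodes fibulin 1, a protein that associates with elastin and basement membranes, differed less. Fbln1 had 377.4, 339.1 and 328.2 in control, 340.3, 364.3, 287.4 and 305.6 at 3 h, and 253.5, 267.3, 280.7 and 275.6 at 12 h. The 12 h arrays were the lowest, but the log2 change of -0.35 ± 0.10 (SE, limma Benjamini-Hochberg adjusted p = 0.117) did not pass the test. A second Fbln1 probe set had a log2 change of -0.66 ± 0.15 (SE, limma Benjamini-Hochberg adjusted p over all probe sets = 0.0904). The third and dimmest overlapped between groups, with -0.19 ± 0.21 (SE, limma Benjamini-Hochberg adjusted p over all probe sets = 0.797).

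Emilin1 encodes a glycoprotein at the boundary of elastin and microfibrils, and its brightest probe set had the smallest fitted change of the 9 genes at 12 h. Its signal was 115.0, 96.6 and 83.8 in control, 98, 122.5, 68.3 and 96.6 at 3 h, and 82.8, 82.4, 90.4 and 85.7 at 12 h. The 12 h arrays lay inside the spread of 3 h. The log2 change was -0.17 (95% interval -0.50 to 0.16) against control and -0.13 (-0.43 to 0.18) against 3 h. A dimmer Emilin1 probe set differed, with overlapping arrays and no call. Its log2 change was 0.49 ± 0.27 (SE) at 3 h against control. At 12 h it was -0.15 ± 0.27 (SE) against control and -0.64 ± 0.25 (SE) against 3 h.

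Promoter sequences from RefSeq (GRCm38.p6) were held for 4 of the 9 measured genes. Those of Fbln5, which fell, and Emilin1, which did not pass the test, are shown to set a falling gene beside one that was not called. Fbln5 has a second start in the table, whose window is given by its counts. Each runs 5′ to 3′ on the gene's strand, from 250 bases before to 50 after the start of the gene. Capitals mark the motifs GGGCGG (the core of the SP1 box) and CAGAC (a SMAD-binding core of the TGF-beta pathway) on either strand, which did not overlap each other.
Fbln5, first window, chr12:101819070-101819369, minus strand: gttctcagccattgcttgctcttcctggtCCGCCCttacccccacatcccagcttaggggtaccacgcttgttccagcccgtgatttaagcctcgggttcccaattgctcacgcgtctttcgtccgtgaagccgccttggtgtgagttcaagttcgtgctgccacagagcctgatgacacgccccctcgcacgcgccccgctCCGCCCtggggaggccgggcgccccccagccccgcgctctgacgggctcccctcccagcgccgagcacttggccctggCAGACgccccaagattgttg
Emilin1, chr5:30913536-30913835, plus strand: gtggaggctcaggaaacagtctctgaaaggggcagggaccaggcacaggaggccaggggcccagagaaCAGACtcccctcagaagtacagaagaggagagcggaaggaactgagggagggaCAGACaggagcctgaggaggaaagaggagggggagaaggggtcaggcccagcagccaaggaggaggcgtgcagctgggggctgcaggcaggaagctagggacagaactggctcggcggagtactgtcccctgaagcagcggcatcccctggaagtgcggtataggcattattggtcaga
The Fbln5 window shown held 2 matches of GGGCGG and 1 of CAGAC, and the Emilin1 window held 0 and 2. The second Fbln5 window, at chr12:101818435-101818734 on the minus strand, held 0 and 2, the same counts as Emilin1. Among 32851 promoters of this length 35.7% held GGGCGG and 49.6% held CAGAC. The first Fbln5 window was 65.7% G and C with 24 CpG pairs, the second was 48.7% with 8, and the Emilin1 window was 61.7% with 6. The clock E-box CACGTG, held by 7.15% of all promoters, the AP-1 motif TGANTCA (7.81%) and TATAAA (13.6%) were in none of these 3 windows, which says only that these letters are absent there. Among the other windows of measured genes, CACGTG occurred in that of Fbln1.

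Lox, which encodes lysyl oxidase, the enzyme that crosslinks elastin and collagen, had a lower signal at 12 h. The brightest Lox probe set had a signal of 85.6, 84.8 and 82.5 in control, 85.2, 103.3, 78.9 and 82.6 at 3 h, and 54.5, 41.6, 51.7 and 38.7 at 12 h. The 3 controls were very close, and the 12 h arrays lay clear below both other groups, with a mean of 46.6 ± 7.66 (SD, n = 4) against 84.3 ± 1.61 (SD, n = 3) in control. The log2 change was -0.69 ± 0.12 (SE, limma Benjamini-Hochberg adjusted p = 0.0171) against control and -0.73 ± 0.11 (SE, limma Benjamini-Hochberg adjusted p = 0.00316) against 3 h. Probe sets of Lox differed, since a second one, at 54.1, 33.7 and 38.0 in control and 40.6, 27.6, 41.5 and 24.9 at 12 h, overlapped between groups and had a log2 change of -0.22 ± 0.19 (SE, limma Benjamini-Hochberg adjusted p over all probe sets = 0.726). The third was under the median of all probe sets on every array. Leaving out control replicate 1 or 2 ended the call against control (limma adjusted p up to 0.0764), and that against 3 h held without each array.

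Loxl1, which encodes the lysyl oxidase most tied to elastic fibre upkeep, was nearer to its control level. The signal was 320.0, 243.4 and 269.3 in control, 289.6, 301.2, 279.3 and 275.6 at 3 h, and 214.4, 212.7, 246.0 and 176.3 at 12 h. The 12 h arrays were below every 3 h array but overlapped control. The log2 change was -0.41 ± 0.11 (SE, limma Benjamini-Hochberg adjusted p = 0.0660) against 3 h and -0.36 ± 0.12 (SE, limma Benjamini-Hochberg adjusted p = 0.166) against control.

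**Figure D2:**
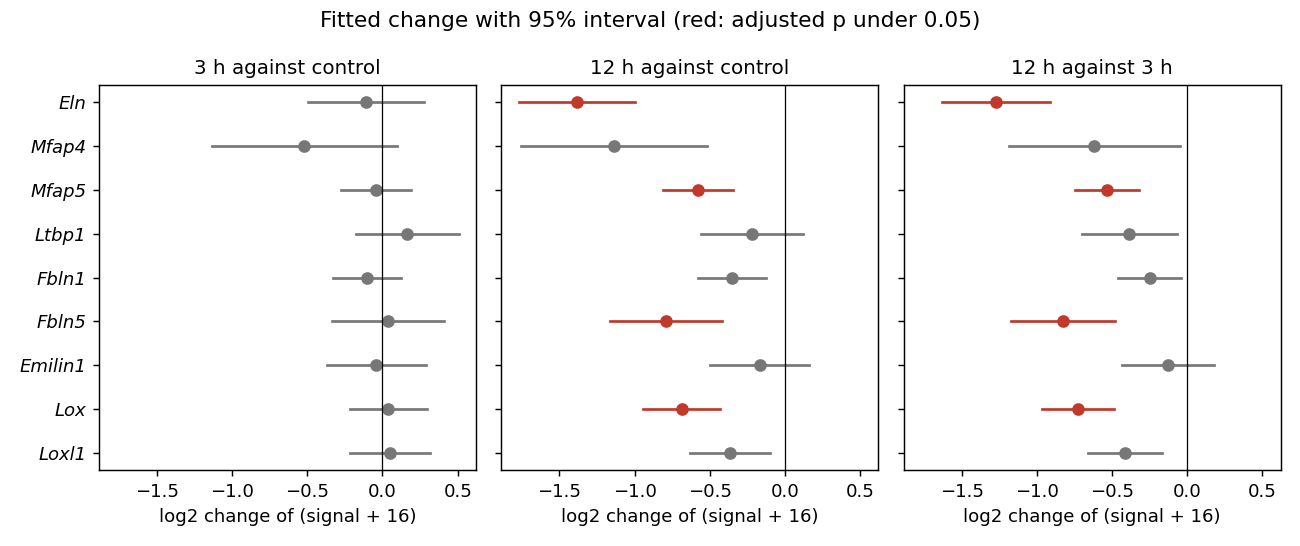
Fitted log2 change of signal + 16 (x axis) with its 95% interval for each of the 9 genes (y axis) in the 3 comparisons, in red where the limma adjusted p was under 0.05. The 3 h intervals include 0, and the 4 red genes are the same at 12 h against control and against 3 h.

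Counted together, 0 of 9 genes rose or fell at 3 h, where 2.54% of all genes were called (1.43% higher and 1.1% lower), 0 of 9 had an unadjusted limma p under 0.05, against 15% of all genes, and 0 of 9 had all arrays below control, against 8.56%. At 12 h against control 4 of 9 fell and 0 rose, where 1.63% of all genes were called, 0.846% lower and 0.786% higher. An unadjusted p under 0.05 was found for 7 of the 9 there, against 15.8% of all genes. In a fit of only genes with a mean signal of at least 50, 626 were called at 12 h against control, these 4 among them. That fit held 9158 genes other than the 9, so the share called was well above 1.63%. Mfap4, under that level, was not in it. At 12 h against 3 h 4 of 9 fell and 0 rose, where 4.07% of all genes were called, 2.08% lower and 1.99% higher. There 8 of the 9 had an unadjusted p under 0.05, against 17.8% of all genes. These comparisons share arrays, so the last 2 counts are not independent. The median log2 change over the 9 genes was -0.04, -0.58 and -0.53 in the 3 comparisons, beside -0.02, -0.01 and 0.01 over all genes. Arrays did not overlap and were lower at 12 h for 6 of 9 genes against control and 6 of 9 against 3 h, where 6.99% and 5.26% of all genes did so. Without the 5 arrays high in pancreatic transcripts no gene of the 9 was called in any comparison, and 8 and 16 genes of the whole array remained called at 12 h against control and against 3 h, with 1 array left at 12 h. On that fit the changes against control were -1.24 for Eln, -1.32 for Fbln5, -0.79 for Lox and -0.42 for Mfap5. Over all genes 143 rose and 154 fell at 12 h against control, and 165 and 115 with all arrays set to the same median level. The 4 genes were called under that scaling and under quantile normalization.

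**Figure D3:**
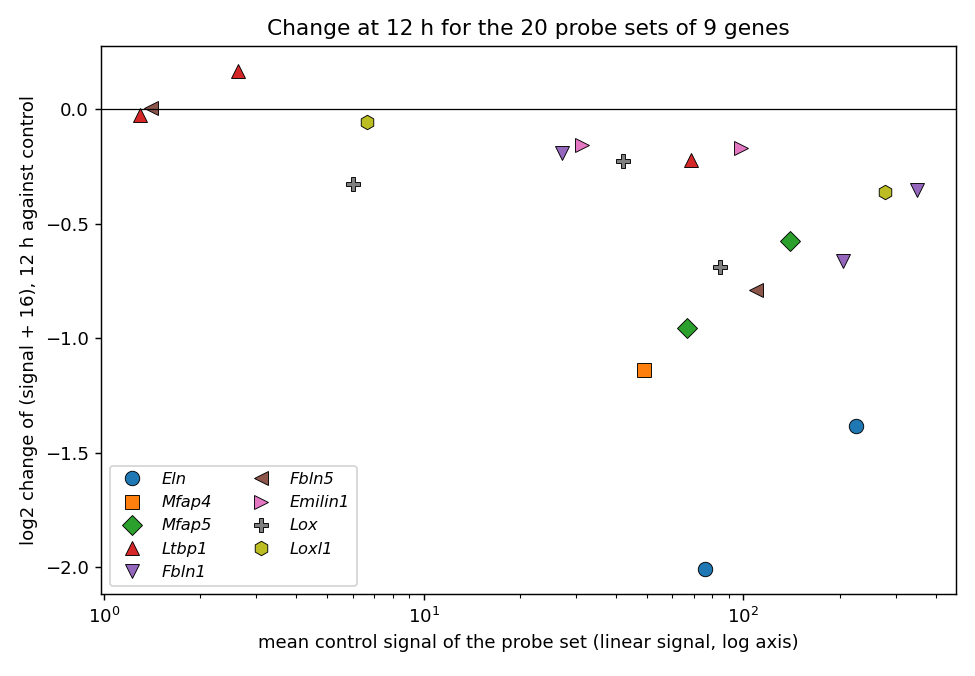
Log2 change at 12 h against control (y axis) against the mean control signal (x axis, log scale) for the 20 probe sets of 9 genes, 1 symbol per gene. The 5 probe sets with a control signal under 10 lie between -0.32 and 0.17, the 2 of Eln lie lowest at -1.38 and -2.01, and the 3 of Lox spread from -0.22 to -0.69.

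The 5 genes whose pattern was most like that of the 9 were collagens, with non-collagen genes next (the first at r = 0.957). Of 9158 other genes with a mean signal of at least 50, those with the highest Pearson correlation with the mean centred log2 level of the 9 over the 11 arrays were Col5a2 (r = 0.968), Col1a2 (0.968), Col6a3 (0.968), Col18a1 (0.967) and Col6a2 (0.962). Within groups, after the group means were taken off, r was 0.909, 0.764, 0.598, 0.71 and 0.783 for these 5 genes. The correlations describe 11 arrays in which all 5 genes also fell at 12 h against control (limma adjusted p from 0.00105 to 0.0337), the arrays share their scaling, and 4 of the 5 are also in the fibroblast marker list.

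Fibroblast and smooth muscle markers were mostly lower at 12 h beside these genes, while no smooth muscle marker was called against control. Of 18 fibroblast markers 8 fell and 1 rose at 12 h against control, with a median log2 change of -0.55. Their summed signal ran from 17322 to 22114 in control, 16421 to 19564 at 3 h and 12814 to 13834 at 12 h. Over the 9 elastic fibre genes the median at 12 h against control was -0.58, close to that of the markers, as was the Mfap5 change. The Eln change of -1.38 was larger than that of any of these markers, among which the largest fall was -1.18. Of 14 smooth muscle markers 0 fell at 12 h against control (8 with an unadjusted limma p under 0.05) and 2 fell against 3 h. Their median log2 change was -0.46 against control, with 13 of 14 below 0. Against 3 h it was -0.54, beside -0.51 for the fibroblast markers. The smooth muscle summed signal was 32362 to 37641 in control, 32421 to 45654.5 at 3 h and 22593 to 35666 at 12 h. The part of either cell type in the result was not tested.

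On 12 h replicate 4 the smooth muscle markers stood apart from the other 12 h arrays. The mean centred log2 level of the smooth muscle markers was 0.19 on 12 h replicate 4, inside the control range of 0.04 to 0.24, and -0.61 to -0.44 on the other 3. On that replicate Eln was 49.5 and Lox 38.7, the lowest of all 11 arrays for each. That array also stood apart for other cell types: its mesothelial level was 0.51 against -0.29 to -0.24 on the other 3, its adipocyte level of 0.48 was the highest of the 11 arrays, and its endothelial level of -0.26 was the lowest. Their part in the values of that array was not tested. The fibroblast markers were low on all 4 arrays, from -0.39 to -0.26, against 0.11 to 0.38 in control. The 12 epithelial markers stayed between -0.15 and 0.12 on all 11 arrays, with 0 called in any comparison (1, 0 and 1 with an unadjusted limma p under 0.05). Of 12 endothelial markers 0 were called at 12 h against control (2 with an unadjusted limma p under 0.05). Of 8 mesothelial markers, which mark the outer lining of the gut, 0 were called either (1 with an unadjusted limma p under 0.05). Their summed signal was 157.3 to 345.0 in control and 126.1 to 352.2 at 12 h. Of 8 fat markers 1 rose at 12 h against control (3 with an unadjusted limma p under 0.05), and all 8 had a log2 change above 0. Of 9 macrophage markers 1 fell (3 with an unadjusted limma p under 0.05), with 8 below 0, 1 above 0 and a median log2 change of -0.26. The mean centred macrophage level was -0.04 to 0.39 in control, -0.20 to 0.13 at 3 h and -0.15 to -0.07 at 12 h.

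**Figure D4:**
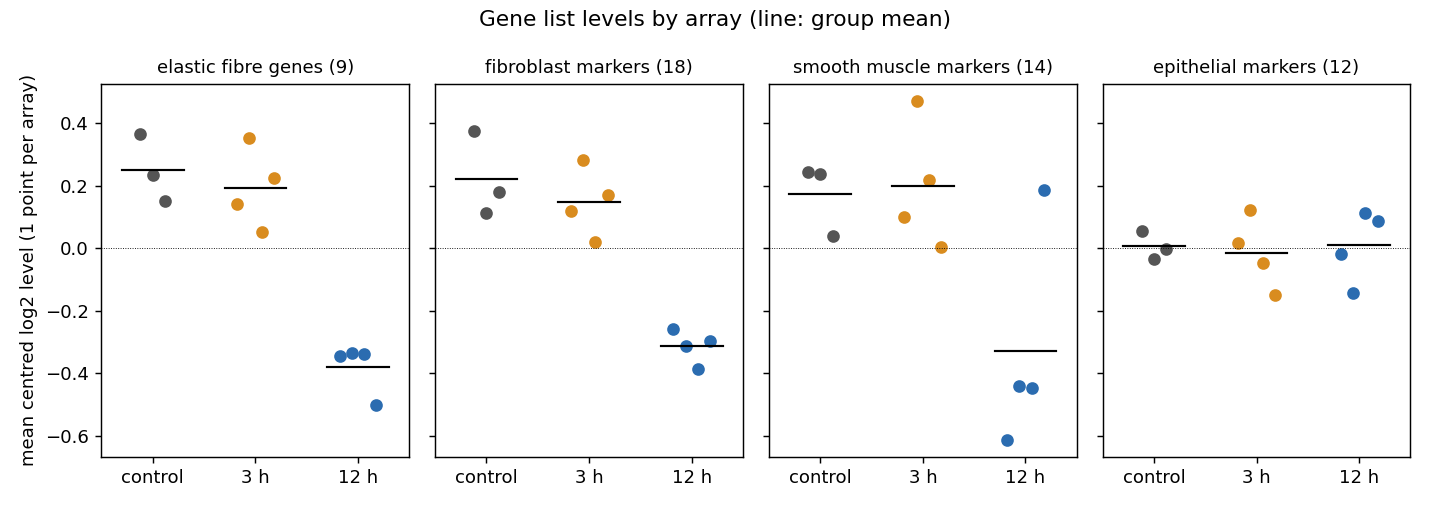
Mean centred log2 level (y axis) of the 9 elastic fibre genes and of 3 lists of cell type markers on each of 11 arrays (points) by group, with the group mean as a line. Elastic fibre genes and fibroblast markers are low on all 4 arrays at 12 h, smooth muscle markers on 3 of the 4, and epithelial markers stay near 0.

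Other genes of the pathway changed at both times and not all downward. Of 91 measured partners in 7 lists, 3 rose and 2 fell at 3 h, 1 rose and 3 fell at 12 h against control, and 9 fell at 12 h against 3 h. The share called was 5.49% at 3 h, 4.40% and 9.89% at 12 h, beside 2.54%, 1.63% and 4.07% of all genes. Without the 5 arrays high in pancreatic transcripts, 2 of these 18 calls held, those of Adamtsl2 and Thbs1 at 3 h, and 16 were lost (limma adjusted p from 0.0803 to 0.553).

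Among 22 microfibril and assembly proteins only Adamtsl2 was called, a secreted glycoprotein that binds fibrillin 1 and LTBP1. Its signal was 5.5, 4.9 and 5.1 in control, 62.2, 66.8, 46.2 and 46.8 at 3 h, and 30.9, 21.5, 36.4 and 13.6 at 12 h. The 3 groups did not overlap. The log2 change was 1.74 ± 0.18 (SE, limma Benjamini-Hochberg adjusted p = 0.000372) at 3 h, held without each array and without the 5 arrays high in pancreatic transcripts (1.82; limma adjusted p = 0.00936). At 12 h it was 0.94 ± 0.18 (SE, limma Benjamini-Hochberg adjusted p = 0.0264), lost without any of 6 arrays (up to 0.102) and without the 5 arrays high in pancreatic transcripts (0.326). It was thus highest at 3 h, when none of the 9 genes passed the test, and the probe set is dim in control.

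In the list of 11 crosslinking and maturation genes, Postn fell at 12 h, which encodes periostin, a matrix protein that brings BMP1 to lysyl oxidase. Its mean signal was 2017 ± 377 (SD, n = 3) in control, 1798 ± 192 (SD, n = 4) at 3 h and 1264 ± 83.5 (SD, n = 4) at 12 h. The difference from control on the log2 scale was -0.65 ± 0.13 (SE, limma Benjamini-Hochberg adjusted p = 0.0322). The collagen lysyl hydroxylase gene Plod2 fell against 3 h, by 0.61 ± 0.13 on the log2 scale (SE, limma Benjamini-Hochberg adjusted p = 0.0234). Both calls were lost without some arrays, 6 for Postn against control and 5 for Plod2. Without the 5 arrays high in pancreatic transcripts the change was -0.38 for Postn (limma adjusted p = 0.553) and -0.92 for Plod2 (limma adjusted p = 0.229). None of 12 elastolytic proteases and none of 8 protease inhibitors was called in any comparison, with 2 of the 12 and 3 of the 8 under an unadjusted limma p of 0.05 at 12 h against control. Mmp12, the macrophage elastase, had 12.4, 11.2 and 15.6 in control and 4.8, 7.8, 2.2 and 0.6 at 12 h, a log2 change of -0.56 (limma adjusted p = 0.0508) at a level under the median of all probe sets. Timp1, an inhibitor of such enzymes, had 40.2, 24.8 and 47.2 in control and 184.1, 168.6, 169.3 and 34.9 at 12 h, a change of 1.38 (limma adjusted p = 0.108), with replicate 4 at the control level.

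Of 12 elastin receptor genes 0 were called against control (2 at 3 h and 3 at 12 h with an unadjusted limma p under 0.05) and 2 fell at 12 h against 3 h, the integrin subunits Itgb1 (-0.44 ± 0.09 SE, limma Benjamini-Hochberg adjusted p = 0.0206) and Itgb6 (-0.53 ± 0.12 SE, limma Benjamini-Hochberg adjusted p = 0.0311). These calls were lost without any of 4 and 6 arrays. Of 8 PDGF and DDR genes, which include kinases that imatinib inhibits, only the ligand gene Pdgfa was called, at 3 h. It had 323.5, 294.2 and 306.5 in control, 199.3, 193.6, 187.3 and 150.4 at 3 h, and 220.9, 220.7, 209.3 and 282.3 at 12 h. The change at 3 h was -0.71 ± 0.12 (SE, limma Benjamini-Hochberg adjusted p = 0.0120), lost without 1 array (0.0613) and without the 5 arrays high in pancreatic transcripts (0.148).

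The TGF-beta pathway, which drives matrix gene transcription, had 18 measured genes. Thbs1 encodes thrombospondin 1, which activates latent TGF-beta. It had 126.3, 157.8 and 102.4 in control, 472.1, 553.8, 394.5 and 394.1 at 3 h, and 221.1, 156.6, 182.1 and 63.8 at 12 h. It rose at 3 h by a log2 change of 1.70 ± 0.30 (SE, limma Benjamini-Hochberg adjusted p = 0.0135), a call lost without 1 array (0.0577), and then changed by -1.54 ± 0.28 (SE, limma Benjamini-Hochberg adjusted p = 0.0100). The receptor gene Tgfbr1 followed the same course, at 353.2 ± 61.3 (SD, n = 3) in control, 555.7 ± 72.1 (SD, n = 4) at 3 h and 328.9 ± 45.0 (SD, n = 4) at 12 h. Its rise at 3 h (log2 change 0.64; limma adjusted p = 0.0456) was lost without any of 9 arrays, and its fall to 12 h (-0.73; limma adjusted p = 0.0122) held without each single array. Without the 5 arrays high in pancreatic transcripts the falls from 3 h to 12 h were lost for Tgfbr1 (-0.54; limma adjusted p = 0.396) and Thbs1 (-1.49; limma adjusted p = 0.158). The ligand gene Tgfb3 had 82.7, 69.7 and 77.6 in control, 62.2, 86.4, 64.9 and 63.8 at 3 h, and 35.4, 41.4, 50.8 and 52.3 at 12 h. It fell at 12 h by 0.61 ± 0.13 on the log2 scale (SE, limma Benjamini-Hochberg adjusted p = 0.0424), a call lost without any of 9 arrays (up to 0.152). The receptor gene Tgfbr2 fell from 3 h to 12 h (-0.44; limma adjusted p = 0.0211), which was lost without any of 4 arrays. Ccn2, a TGF-beta target, had 335.6, 294.9 and 479.6 in control, 155.3, 154.9, 137.5 and 132.9 at 3 h, and 235.5, 135.8, 176.9 and 232.7 at 12 h. All arrays after imatinib lay below control. It fell at 3 h (-1.23 ± 0.19 SE; limma adjusted p = 0.00653), which held without each single array but not without the 5 arrays high in pancreatic transcripts (-1.26; limma adjusted p = 0.0803). At 12 h against control it also fell (-0.87 ± 0.19 SE; limma adjusted p = 0.0464), a call lost without any of 9 arrays and without those 5 (-1.37; limma adjusted p = 0.288).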

How the data were processed

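Total RNA of 11 colon samples (control n = 3, 3 h n = 4, 12 h n = 4) was biotin-labelled and hybridised to Affymetrix arrays, per the labels' protocols. The deposited values are linear intensity signals, 1 per probe set (45101, of which 64 are controls). The software the authors used is not given in the sources used here. Scaling to a common level is seen in the values: with the top and bottom 2% removed, all 11 arrays average 100.0, and array medians were 16.7 to 23.8. The number of arrays limits the precision.

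Gene symbols came from GEO's annotation of the array and were brought up to date through RefSeq gene numbers. Of several probe sets for a gene, the one highest in mean log2 level was used, and 34945 probe sets with 1 symbol gave 18193 genes. Signals were transformed as log2(signal + 16), which understates changes of dim genes. Limma 3.58.1 in R 4.3.3 was fitted to all 11 arrays with group as the only term, with 8 residual and 3.99 prior degrees of freedom, and 2-sided p-values were adjusted over all genes (Benjamini-Hochberg). A call was an adjusted p under 0.05. The procedure was also run on simulated data with rises planted at 12 h. That simulation drew each gene and array independently, so it does not reflect differences shared by many genes on an array. Figures used matplotlib 3.10.9.

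The genes and lists were chosen with earlier results of these data known. All members were named, and of each partner list up to 4 called genes with the smallest p in each comparison. Where none was called, up to 2 with the smallest p were named. The like genes were the top 5 by correlation. Alternatives covered offset, scaling, level filter, probe set rule, array weights, variance prior, groups in the fit, a replicate block and leaving out each array. Leaving out the 5 arrays whose acinar signal was over 3 times the median was chosen after seeing the data. Deviations of samples with the same replicate number correlated between -0.21 and 0.31, so the numbers were not taken to pair samples.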

Additional observations from a re-analysis of the deposited data

Results flagged for a closer look

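The change at 12 h differed from that at 3 h for 4 genes, tested as 12 h against 3 h with limma over all genes. The difference in log2 change was -1.27 for Eln, -0.82 for Fbln5, -0.73 for Lox and -0.53 for Mfap5. Each was lower on 4 of 4 arrays at 12 h than on every array at 3 h. Both effects share the control arrays, which cancel in the difference.

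A dimmer Fbln1 probe set had 1 array far from its group: 12 h replicate 3 had a signal of 98.9 and the next array 130.9, a gap of 0.864 of the group's range on the log2 scale. Such gaps occur by chance in about 1 in 20 groups, and 1 of 40 groups tested showed one. None of the 18 groups of the brightest probe sets did.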

How the results depend on the processing

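Of 9 genes 4 were called at 12 h against control. This count was 2 with an offset of 1, 2 with the mean of all probe sets, 1 with the arrays of only the 2 groups compared and 1 with the replicate block. Without the arrays high in pancreatic transcripts it was 0, at 12 h against control and against 3 h. Eln was the gene called under the block and in the fit of 2 groups. Leaving out each array gave 1 to 4 genes at 12 h against control, 4 to 5 against 3 h and 0 to 0 at 3 h. Some settings added calls. Loxl1 at 12 h against 3 h was called in 4 of 12 other settings (limma adjusted p down to 0.0290). It was also called without 1 of the 11 arrays (0.0497). Mfap4 at 12 h against control was called with a trended prior (limma adjusted p = 0.0335) and without 1 of the 11 arrays (0.0409). The replicate block changed no other count of these genes, and the numbers are not known to pair the samples. The causes were not tested, save that fewer arrays enter some of these fits.

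Directions turned for these values. At 3 h these were Emilin1 with the mean of all probe sets (0.22), Fbln5 with the replicate block (-0.038) and, without the arrays high in pancreatic transcripts, Eln (0.077), Mfap5 (0.018), Fbln1 (0.0094) and Emilin1 (0.19). Mfap4 at 12 h against 3 h, -0.62 with all arrays and not called, was 0.0097 without those arrays. Leaving out single arrays moved the 3 h change of Mfap5 from -0.12 to 0.030, Fbln5 from -0.017 to 0.13, Emilin1 from -0.15 to 0.091, Loxl1 from -0.035 to 0.15 and Lox from -0.030 to 0.080.

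The count of all genes called, 462, 297 and 741 in the 3 comparisons, was 229, 81 and 435 with an offset of 1 and 277, 183 and 466 with the replicate block. It was 80, 8 and 16 without the arrays high in pancreatic transcripts. With genes of a mean signal of at least 50 it was 694 at 3 h and 626 at 12 h against control, where it was also 495 with an offset of 64, 536 with a trended prior and 62 in the fit of 2 groups. Single arrays left out gave 161 to 520, 64 to 455 and 395 to 758. Probe sets near or under the array median limit Mfap4 and the dimmer probe sets most.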

Other observations

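Mgp was the 1 fibroblast marker that rose. It encodes matrix Gla protein, an inhibitor of calcification in elastic tissue, and it is named here after its value was seen. Its signal was 533.5, 418.7 and 593.6 in control, 758.7, 906.8, 782.5 and 686.9 at 3 h, and 915.1, 969.0, 1057 and 643.4 at 12 h. All arrays after imatinib lay above all control arrays, and the log2 change was 0.60 (limma adjusted p = 0.0997) at 3 h and 0.77 (limma adjusted p = 0.0487) at 12 h. Whether the Mgp call holds when arrays are left out was not tested. Col6a3, among the 5 genes most like the elastic fibre genes, had 518.4, 540.4 and 394.0 in control and 212.8, 195.6, 199.0 and 205.1 at 12 h.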
